A study of Mus musculus with 24 samples.

Results

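The B cell marker genes examined here are the 9 genes Cd79a, Cd79b, Pax5, Cr2, Fcer2a, Blk, Fcrla, Jchain and Mzb1, taken by symbol from the 49585 gene identifiers counted in whole white adipose tissue of mice. All 9 symbols had an Ensembl identifier in the count tables. RNA sequencing of 24 libraries from male C57BL/6J mice covered 2 experiments. In the first, wild-type mice ate for 20 weeks either a high-fat diet (60% kcal fat, 4 libraries) or a low-fat diet (10% kcal fat, 4 libraries), and subcutaneous adipose tissue (SAT) was taken. In the second, Azin2-/- mice and their wild-type littermates ate the 60% fat diet for 8 weeks, so that no lean control stands beside them. This gave 3 Azin2-/- and 5 wild-type SAT libraries, and 4 Azin2-/- and 4 wild-type libraries of epigonadal adipose tissue (GAT). Azin2 encodes antizyme inhibitor 2, a regulator of polyamine metabolism, and the labels do not say which part of it was deleted. The titles number or mark the libraries but do not say that each came from a separate animal. Some GAT and SAT libraries of a genotype carry the same mark (3 in wild-type, 2 in Azin2-/-), and whether these came from 1 animal is not stated, so the p-values below measure the spread between libraries, which may be partly technical.

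B cells carry an antigen receptor on their surface and, once stimulated, can become plasma cells that secrete antibody. White fat holds resident B cells, clusters of lymphocytes in visceral pads, and, in the subcutaneous pad of mice, an inguinal lymph node that can remain in or beside the dissected tissue. Among the 9 genes, Cd79a and Cd79b encode the signalling chains of the B cell receptor, and Pax5 the transcription factor that maintains B cell identity. Cr2 (complement receptor 2, CD21) and Fcer2a (the low-affinity IgE receptor, CD23) mark mature B cells, follicular dendritic cells of lymph nodes express Cr2 as well, Blk encodes a Src-family kinase, and Fcrla an Fc receptor-like protein inside the cell. Jchain encodes the joining chain of polymeric IgM and IgA, and Mzb1 an endoplasmic reticulum chaperone of marginal zone B cells and plasma cells. Their link to antibody secretion rests here on known roles only.

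On GRCm38, Cd79a (ENSMUSG00000003379) lies on chromosome 7 at 24897381 to 24902197, plus strand, and Cr2 (ENSMUSG00000026616) on chromosome 1 at 195136811 to 195176716, minus strand. The upstream windows of these genes are shown because they were the members that changed with genotype in GAT, and Cr2 also changed with diet. Both come from RefSeq (GRCm38.p6), 5′ to 3′ on the gene's own strand, at chr7:24897247-24897380 (+) and chr1:195176720-195176969 (-). Capitals mark the E-box letters CAGGTG, or the PU.1-type letters GAGGAA, read on either strand.
Cd79a: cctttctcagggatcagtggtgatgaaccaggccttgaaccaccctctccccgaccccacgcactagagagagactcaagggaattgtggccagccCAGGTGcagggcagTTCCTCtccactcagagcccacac
Cr2: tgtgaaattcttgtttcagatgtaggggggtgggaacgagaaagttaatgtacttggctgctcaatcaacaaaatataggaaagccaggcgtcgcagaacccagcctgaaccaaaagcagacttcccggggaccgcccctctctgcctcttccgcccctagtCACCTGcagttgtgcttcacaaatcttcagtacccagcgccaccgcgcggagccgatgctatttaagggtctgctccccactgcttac
Of the 8 promoter windows of 250 bases found for 6 members, 4 held CAGGTG and 2 held GAGGAA, while 0 held the EBF-type letters CCCNNGGG or the octamer ATGCAAAT. Among all 32851 mouse promoters of that length, 17.2% held CAGGTG, 23.3% GAGGAA, 11.8% CCCNNGGG and 1.6% ATGCAAAT on either strand. These matches describe letters only.

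The other members lie on chromosome 11 (Cd79b, 106311341 to 106314762), chromosome 4 (Pax5, 44524757 to 44710487), chromosome 8 (Fcer2a, 3681737 to 3694175), chromosome 14 (Blk, 63372836 to 63417037), chromosome 1 (Fcrla, 170917576 to 170927583), chromosome 5 (Jchain, 88519809 to 88527891) and chromosome 18 (Mzb1, 35647267 to 35649367), all on the minus strand of GRCm38.

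Levels of all 9 genes were low, and they are given as normalised CPM (reads scaled to library size, with TMM factors). Per kilobase of exon, the mean over the 24 libraries was highest for Jchain, at 1.66 CPM per kb, followed by Cd79b at 1.48 and Cd79a at 1.13 CPM per kb. Fcrla (0.374), Mzb1 (0.351), Fcer2a (0.253), Blk (0.234) and Pax5 (0.146 CPM per kb) followed, and Cr2 was lowest at 0.0467 CPM per kb. Within libraries the order of neighbours held to varying degrees. Pax5 was above Cr2 in 24 of 24 libraries, Cd79a above Fcrla in 23, Cd79b above Cd79a in 20 and Blk above Pax5 in 20. Fcrla was above Mzb1 in 17, Fcer2a above Blk in 15 and Mzb1 above Fcer2a in 13, so these neighbours were not separated, and Jchain was above Cd79b in only 6, its mean resting on the highest libraries. Cr2 rested on 2 to 98 reads a library and Mzb1 on 0 to 114, so that their values carry wide counting error. The single zero, Mzb1 in low-fat SAT replicate 3, allows up to 3 counts (95% confidence, counting error only), which is 0.0643 to 0.0939 CPM over the depths of 31.96 to 46.62 megareads. The other genes annotated within Pax5 (Gm12462 and 4930517J16Rik among them, on the opposite strand) and the pseudogene Gm2962 within Fcrla could share reads with them.

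**Figure D1:**
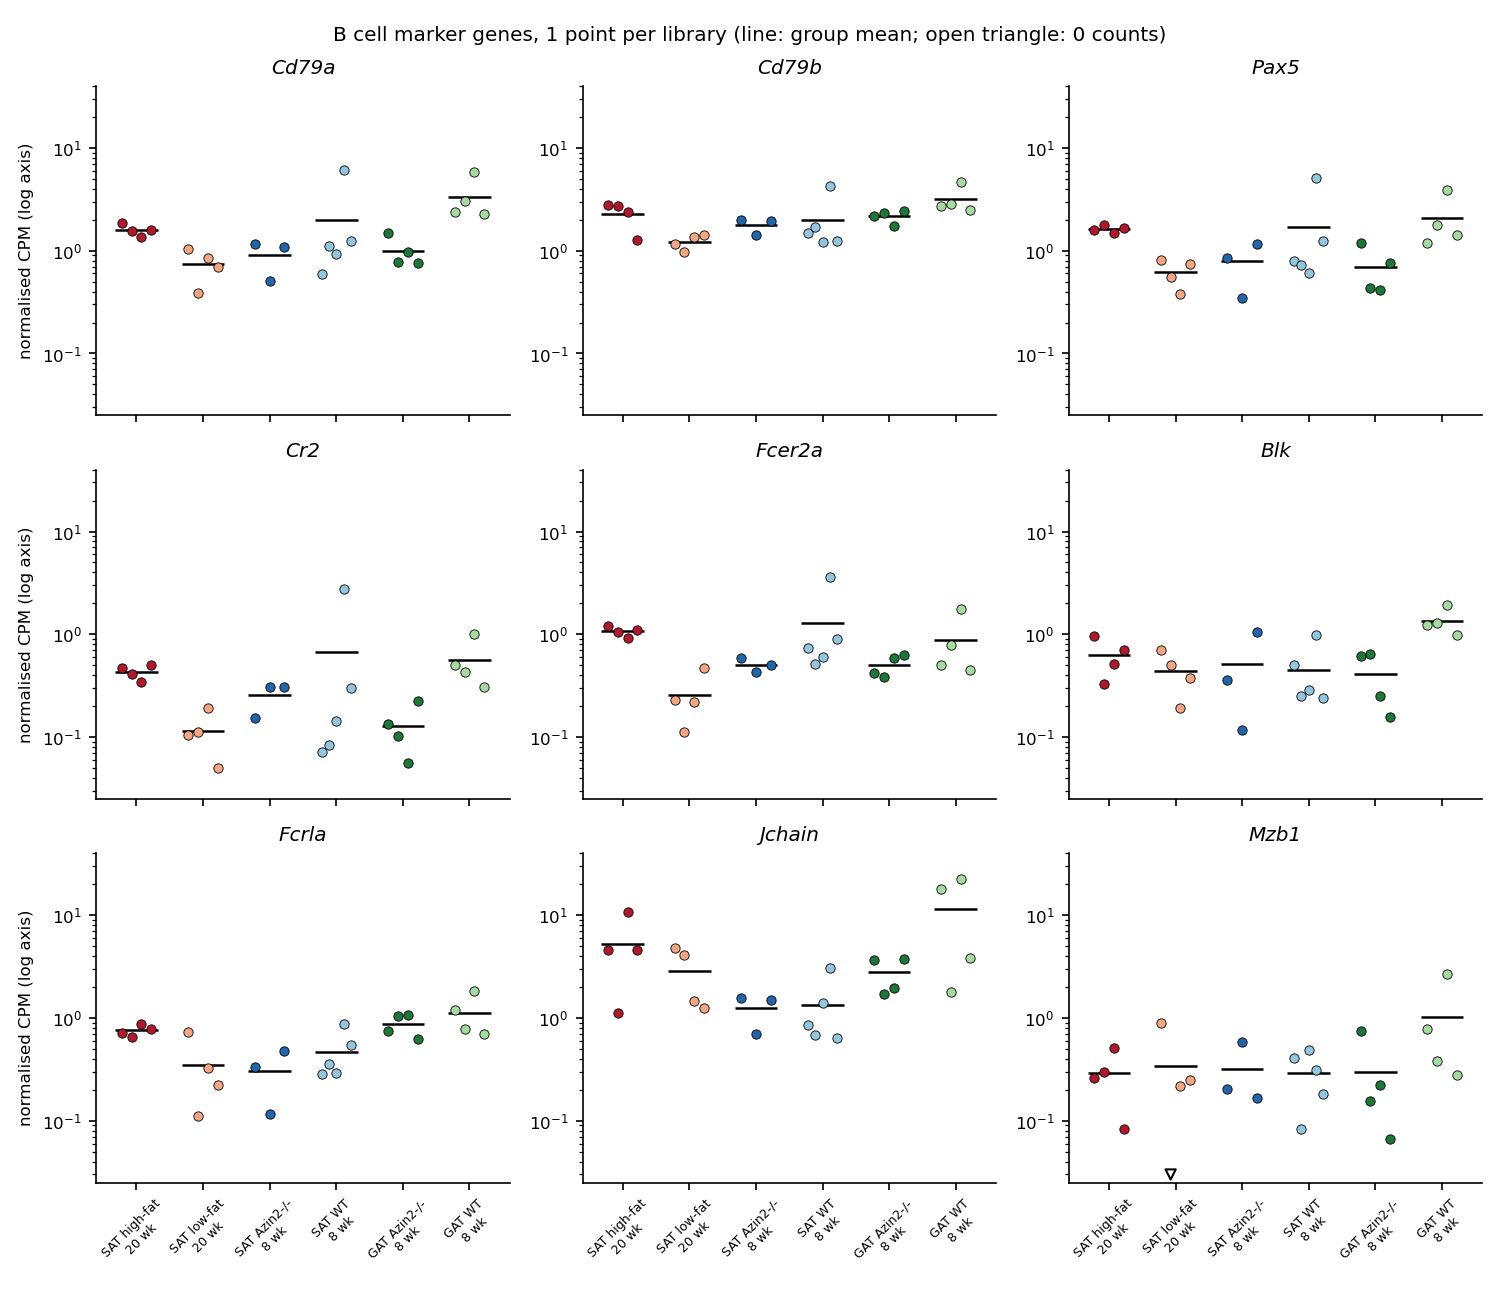
Normalised CPM (log axis) of the 9 B cell marker genes in each of the 24 libraries, by group, with the group mean as a line and 0 counts as an open triangle. In wild-type SAT 1 library lies far above the others for Cd79a (6.07 CPM), Cd79b, Pax5, Cr2 and Fcer2a, and in wild-type GAT 1 library is highest for all 9 genes.

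Several libraries stood apart before any comparison. Wild-type SAT replicate 4 was the highest of its group for 8 of the 9 genes, and wild-type GAT replicate 3 for 9 of 9. Low-fat SAT replicate 1 goes against its SAT label, with Hoxc10 at 0.0415 CPM (26.5 to 32.5 in the other low-fat libraries), Wt1, a visceral marker, at 2.68 CPM, and epididymis transcripts summing to 44474 CPM. Wild-type GAT replicate 3 also held epididymis transcripts (4595 CPM). Skeletal muscle transcripts summed to 97360 CPM in Azin2-/- SAT replicate 2 and 81639 CPM in wild-type SAT replicate 3. Azin2 itself was at 8.32 to 11.8 CPM in Azin2-/- SAT, against 16.2 to 25.2 CPM in wild-type SAT, and at 12.5 to 19 CPM in Azin2-/- GAT, against 22.4 to 25.4 CPM in wild-type GAT, so reads remained in the knockout. In bulk tissue, fewer B cells and less RNA per B cell cannot be told apart.

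Wild-type SAT replicate 4 was the library with the strongest mature B cell profile of the series for Cd79a, Pax5, Cr2 and Fcer2a. Its Cd79a level was 6.07 CPM, against 0.595 to 1.23 CPM in the other 4 wild-type SAT libraries, its Pax5 level 5.14 CPM (others 0.608 to 1.23 CPM), and its Cr2 level 2.77 CPM (others 0.0714 to 0.301 CPM). Fcer2a stood at 3.62 CPM there and at 0.519 to 0.903 CPM in the others. Further B cell genes were high in the same library, with Ms4a1, which encodes CD20, at 3.22 CPM (0.571 to 0.955 CPM in the others) and Ighd, the IgD heavy chain, at 12.1 CPM (2.71 to 3.82 CPM). Ighm, the IgM heavy chain, did not follow, at 313 CPM there and 326 to 636 CPM in the others. Over the wild-type SAT group Ighm averaged 459 CPM, against 4.39 CPM for Igkc, the kappa light chain. The source of the Ighm reads was not tested, so Ighm may not follow B cells here. Jchain, at 3.05 CPM, was also the highest of the group, whereas Mzb1, at 0.311 CPM, lay within the range of the others.

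Genes of lymph node stroma and vessels were set beside this library. Glycam1, a sulphated ligand made by high endothelial venules, was at 0 counts there, as in 22 of the 24 libraries, and reached 0.0387 CPM in Azin2-/- SAT replicate 2 and 0.117 CPM in wild-type GAT replicate 3. Ccl21a, the T zone chemokine, was at 0.904 CPM (others 0.104 to 2.69 CPM), and Cxcl13, the follicle chemokine that draws B cells, at 0.48 CPM (others 0.207 to 8.34 CPM). Summed over 9 genes, lymph node stroma and vessel transcripts gave 6.39 CPM, inside the 3.28 to 10.4 CPM of the other wild-type SAT libraries. T cell genes (19 in all) summed to 36.4 CPM, above the 10.3 to 28.5 CPM of the others, with Cd3d at 1.33 CPM against 0.0868 to 0.394 CPM. Whether a piece of lymph node was in this pad was not tested.

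Wild-type GAT replicate 3 showed a different mixture, in which Jchain and Mzb1 were high as well. Jchain reached 22.7 CPM and Mzb1 2.67 CPM, the highest values of the series, beside Cd79a at 5.78 CPM and Cd79b at 4.63 CPM. Its Cxcl13 level was 4.68 CPM (others 0.708 to 2.84 CPM), Ccl21a 7.84 CPM (others 1.97 to 6.01 CPM), the lymph node sum 23.1 CPM (others 12.3 to 22.7 CPM) and the T cell sum 59.1 CPM (others 31.5 to 47.8 CPM). The part of these transcripts, and of its epididymis transcripts, in the B cell values was not tested.

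**Figure D2:**
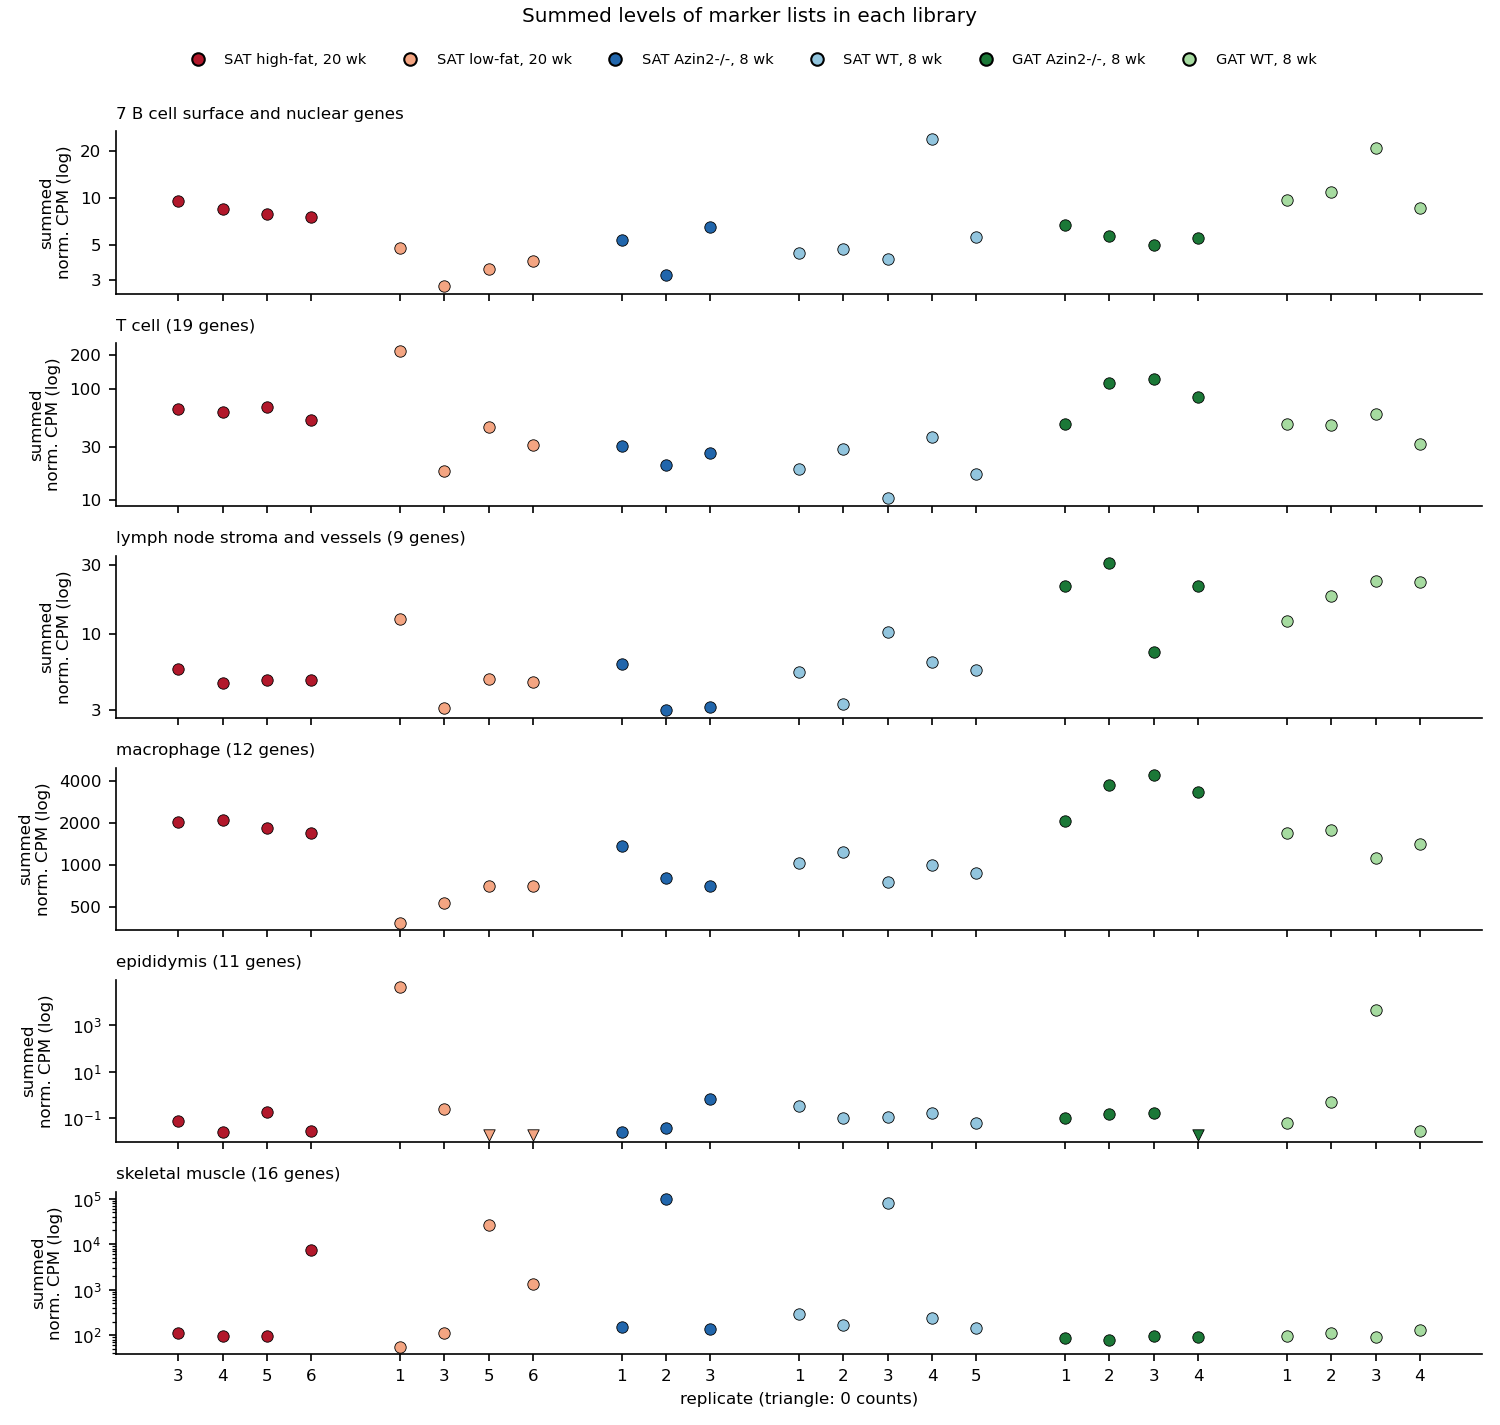
Summed normalised CPM (log axes) of marker lists in each library, numbered by replicate along the horizontal axis, with 0 counts as triangles. The 7 genes Cd79a, Cd79b, Pax5, Cr2, Fcer2a, Blk and Fcrla peak at 23.8 CPM in wild-type SAT replicate 4, where the lymph node list is at 6.39 CPM, and at 20.8 CPM in wild-type GAT replicate 3, where it is at 23.1 CPM. The lymph node list includes Chst4, which averaged 7.33 CPM in wild-type GAT and 0.00951 CPM in wild-type SAT.

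The first experiment set 20 weeks of high-fat diet against low-fat diet in SAT. Pax5, Cr2 and Fcer2a rose on the high-fat diet, by 2.49-fold, 3.62-fold and 3.97-fold, and the other 6 members did not pass the test. Fcer2a was at 1.21, 1.06, 0.927 and 1.09 CPM on the high-fat diet, against 0.228, 0.111, 0.219 and 0.472 CPM on the low-fat diet. Cr2 was at 0.473, 0.407, 0.341 and 0.503 CPM on the high-fat diet, against 0.104, 0.111, 0.191 and 0.0496 CPM on the low-fat diet. For both receptors every high-fat library lay above every low-fat library. Cr2 had 2 to 7 reads a library on the low-fat diet and 14 to 18 on the high-fat diet, and Fcer2a 4 to 19 and 38 to 46. With a minimum count of 10, both receptors passed the low-count filter through their high-fat libraries. Their entry into the test thus depended on the group where they are high. Their log2 fold changes were 1.99 ± 0.40 for Fcer2a (adjusted p = 0.0123) and 1.86 ± 0.37 for Cr2 (adjusted p = 0.0121; SE, edgeR quasi-likelihood test, Benjamini-Hochberg over 17066 genes).

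Pax5 averaged 1.63 ± 0.131 CPM on the high-fat diet and 0.623 ± 0.193 CPM on the low-fat diet (SD, n = 4 each), and its groups did not overlap. Its log2 fold change was 1.32 ± 0.29 (edgeR adjusted p = 0.0168), and it missed the threshold without high-fat replicate 3 (0.0515) or replicate 4 (0.0586). The receptor chains did not pass the test. Cd79a was at 1.84, 1.57, 1.37 and 1.59 CPM on the high-fat diet, against 1.04, 0.388, 0.847 and 0.695 CPM on the low-fat diet. These groups did not overlap either, but the edgeR adjusted p was 0.0612, with a log2 fold change of 1.03 ± 0.33. Cd79b differed by 0.85 ± 0.29 on the log2 scale (edgeR adjusted p = 0.0734) and its groups overlapped through high-fat replicate 6, at 1.26 CPM.

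The remaining members did not pass the test either. Fcrla differed by 1.00 ± 0.54 on the log2 scale and Blk by 0.42 ± 0.49. Jchain spread from 1.11 to 10.7 CPM on the high-fat diet and from 1.24 to 4.74 CPM on the low-fat diet, and Mzb1 had a log2 fold change of -0.37 ± 0.98. In all, 3 of 9 members were called higher, where 10.8% of all tested genes were, and 4 of 9 did not overlap in the higher direction, where 18.6% of all genes did not. Over the members the median log2 fold change was 1.00, against -0.09 over all tested genes. Without low-fat replicate 1, the library against its SAT label, 6 members were called (23.5% of all genes were then called higher): Cd79a (1.30), Cd79b (0.87) and Fcrla (1.76, log2 fold change) joined the 3 above. That library was also the highest low-fat library for Cd79a and Fcrla, so leaving it out necessarily raises their estimates.

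A part of the other lineage genes also rose. Of 19 tested B cell genes outside the members, 9 rose and 0 fell on the high-fat diet, with Cd180, a Toll-like receptor homologue, at a log2 fold change of 3.03, Cd22, an inhibitory receptor, at 2.69, Cd72, another inhibitory receptor, at 1.90, and the tetraspanin Cd37 at 1.81. Ms4a1 had a log2 fold change of 0.97 (edgeR adjusted p = 0.104). Fcmr (-0.31), Ralgps2 (-0.34), Ly6d (-0.15), Tnfrsf13c (0.23) and Bank1 (0.40, log2 fold changes), also of this list, did not pass. Of 21 B cell receptor signalling genes 11 rose, among them the adaptor Pik3ap1 (2.98), the exchange factor Vav1 (1.72) and the kinase Btk (1.95), all log2 fold changes. Myeloid cells express several of these too. In the same libraries 10 of 12 macrophage genes rose, their sum being 1709 to 2087 CPM on the high-fat diet, against 388 to 710 CPM on the low-fat diet. Of 19 T cell genes 4 rose, and of 3 tested lymph node genes edgeR called 0, with 1 at an unadjusted p under 0.05. Among 13 plasma cell genes 0 rose, and Xbp1 and Eaf2 fell, by 0.58 and 0.94 on the log2 scale. Without low-fat replicate 1, 5 plasma cell genes rose and 2 fell, 16 of the 19 B cell genes and 17 of the 21 signalling genes rose, and 11 of 12 macrophage genes rose. The part of macrophages in the shared genes was not tested.

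**Figure D3:**
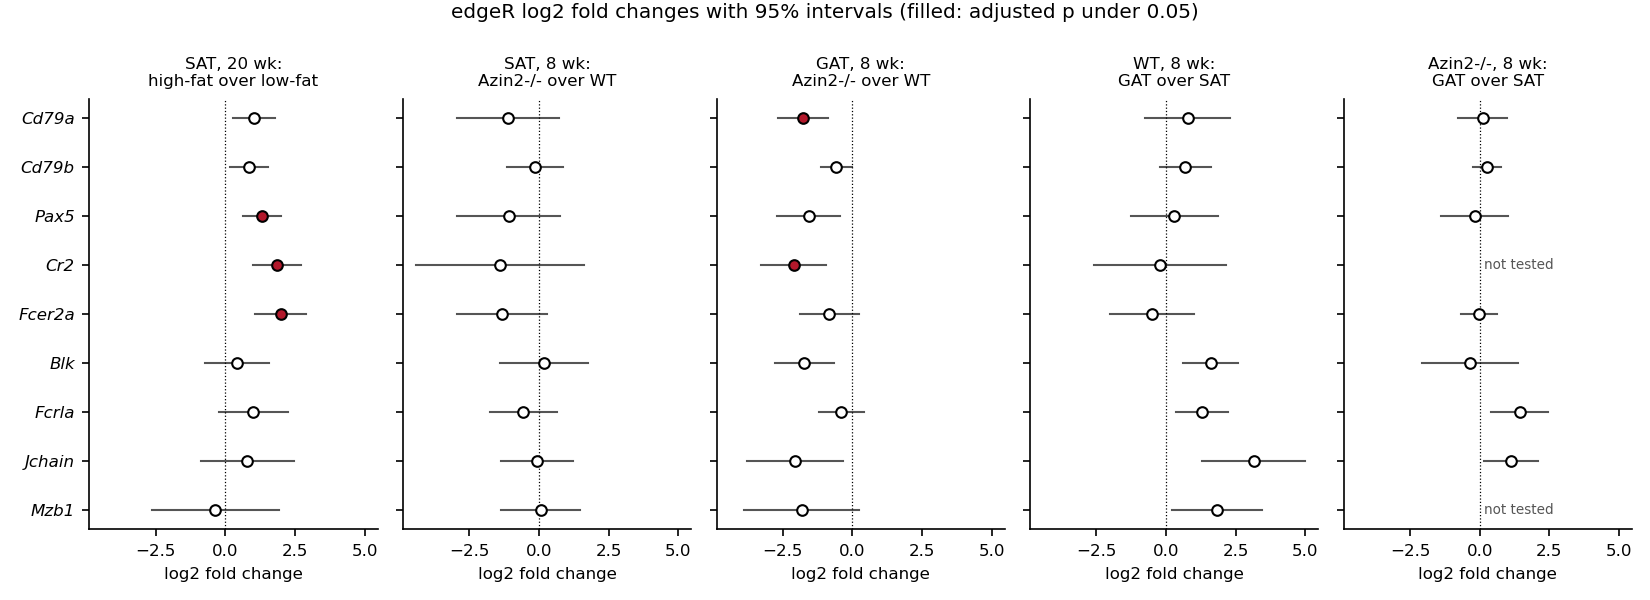
Log2 fold changes of the 9 genes with 95% intervals (edgeR) in 5 comparisons, filled where the adjusted p is under 0.05. Filled points are Pax5, Cr2 and Fcer2a for diet in SAT, to the right of 0, and Cd79a and Cr2 for genotype in GAT, to the left of 0.

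In SAT after 8 weeks of high-fat diet, Azin2-/- and wild-type libraries were not separated for any member. Cd79a was at 1.15, 0.503 and 1.08 CPM in Azin2-/- SAT, against 0.595, 1.1, 0.926, 6.07 and 1.23 CPM in wild-type SAT. Cr2 was at 0.154, 0.31 and 0.306 CPM in Azin2-/- SAT, against 0.0714, 0.083, 0.145, 2.77 and 0.301 CPM in wild-type SAT. All 9 genes overlapped between the genotypes, and wild-type replicate 4 set the upper end of the wild-type range for 8 of them. By edgeR 0 of 9 were called (0.00590% of all genes were), 0 reached an unadjusted p under 0.05, and DESeq2 called 0 as well (1.99% of all genes were). The log2 fold change was -1.11 for Cd79a (95% interval -2.94 to 0.72), and -0.07 without wild-type replicate 4. For Fcer2a it was -1.33 (-2.93 to 0.28), and -0.45 without that library. Blk had 0.19, Jchain -0.07 and Mzb1 0.06. The groups lay apart for 0 of 9 in either direction, where 3.46% of all genes did so upward and 3.80% downward. Of 19 other B cell genes and 21 B cell receptor signalling genes edgeR called 0, with 2 of each at an unadjusted p under 0.05.

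In GAT the same genotype contrast gave lower levels of 2 members in the knockout. Cd79a fell 3.43-fold and Cr2 4.31-fold in Azin2-/- GAT, and the other 7 members had negative log2 fold changes that did not pass the test. Both calls were lost without the low-count filter and in the fit of all 24 libraries, and the Cr2 call was lost whichever of the 8 libraries was left out (edgeR adjusted p 0.0521 to 0.156). Cd79a was at 1.49, 0.771, 0.973 and 0.761 CPM in Azin2-/- GAT, against 2.4, 3.01, 5.78 and 2.25 CPM in wild-type GAT. Cr2 was at 0.133, 0.103, 0.0556 and 0.224 CPM in Azin2-/- GAT, against 0.504, 0.43, 1.01 and 0.309 CPM in wild-type GAT. These Cr2 values rest on 2 to 10 reads a library in Azin2-/- GAT and 11 to 43 in wild-type GAT. Cr2 thus passed the low-count filter through the wild-type libraries, the group where it is high. Every knockout library lay below every wild-type library for both genes. Their log2 fold changes were -1.78 ± 0.39 (Cd79a, adjusted p = 0.0409) and -2.11 ± 0.51 (Cr2, adjusted p = 0.0473, edgeR with Benjamini-Hochberg over 16778 genes).

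Blk averaged 0.415 ± 0.247 CPM in Azin2-/- GAT and 1.36 ± 0.41 CPM in wild-type GAT (SD, n = 4 each), without overlap, at a log2 fold change of -1.74 ± 0.46 (edgeR adjusted p = 0.0588). Pax5 was at 0.417 to 1.19 CPM in Azin2-/- GAT, against 1.2 to 3.86 CPM in wild-type GAT, at -1.57 ± 0.49 (edgeR adjusted p = 0.0866). Cd79b showed a smaller difference than its partner chain, with 1.72 to 2.42 CPM in Azin2-/- GAT, against 2.5 to 4.63 CPM in wild-type GAT, and -0.58 ± 0.24 (edgeR adjusted p = 0.161). Groups did not overlap for these 3 genes either. Fcer2a (-0.83), Fcrla (-0.41) and Mzb1 (-1.83, log2 fold change) overlapped between genotypes. Jchain was at 3.69, 1.72, 1.97 and 3.78 CPM in Azin2-/- GAT, against 18, 1.79, 22.7 and 3.83 CPM in wild-type GAT. Its log2 fold change of -2.08 ± 0.76 (edgeR adjusted p = 0.12) thus came from wild-type replicates 1 and 3, the other wild-type libraries being within or next to the knockout range.

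Of the members in GAT, 2 of 9 members were called lower, where 1.32% of all tested genes were called lower, 5.45% higher and 6.77% either way, and 5 of 9 did not overlap in the lower direction, where 5.91% of all genes did not (8.49% in the higher direction). The median log2 fold change was -1.74 for the members, against -0.03 for all tested genes. Without wild-type replicate 3, Cd79a stayed called at -1.36 (edgeR adjusted p = 0.048, when 2.69% of all genes were called lower) and Cr2, at -1.65, missed the threshold (0.0535). Both lost the call without Azin2-/- replicate 2, 3 or 4 or wild-type replicate 2 or 4, settings under which at most 1 gene of the whole table was called. Without Azin2-/- replicate 1, when 15.7% of all genes were called either way, Cd79a, Pax5 and Blk were called, and Cr2 was not (0.0521). Cr2 was also not called without wild-type replicate 1 (0.0537).

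Genes of the B lineage split in this contrast. Of 19 tested B cell genes outside the members, 3 fell in Azin2-/- GAT, among them the follicle homing receptor Cxcr5 (-2.08) and Ms4a1 (-2.02, log2 fold change). Ms4a1 was at 0.955, 0.796, 0.528 and 0.604 CPM in Azin2-/- GAT, against 2.27, 1.64, 5.78 and 1.83 CPM in wild-type GAT, without overlap. In the same list 4 genes rose, namely Cd180 (2.37), Cd72 (1.93), Tnfrsf13b, the receptor TACI (1.04), and Cd37 (1.01). Of 21 B cell receptor signalling genes 10 rose, including Pik3ap1 (2.16), Btk (1.41) and Vav1 (1.41, log2 fold changes), and 1 fell. The lymphocyte cytokine gene Ltb fell by 0.97 on the log2 scale, and Cxcl13 had -1.73 (edgeR adjusted p = 0.125). In the lymph node list 4 of 6 tested genes had an unadjusted p under 0.05, in both directions. Ighm differed little, with a log2 fold change of -0.17, while Igkc averaged 8.89 ± 3.64 CPM in Azin2-/- GAT and 31.9 ± 28.8 CPM in wild-type GAT (SD, n = 4 each).

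Beside these, 10 of 12 macrophage genes rose, and their sum was 2078 to 4418 CPM in Azin2-/- GAT, against 1119 to 1791 CPM in wild-type GAT. Of 19 T cell genes 2 rose, Il7r (2.10) and Themis (1.95), and 0 fell. As CPM are shares of a library, lower B cell values and more transcripts of other cells cannot be told apart from these levels alone. Among 13 plasma cell genes Sdc1 (1.11) and Prdm1 (0.88) rose and Eaf2 (-1.40) fell. Lymph node transcripts summed to 7.53 to 30.9 CPM in Azin2-/- GAT, against 12.3 to 23.1 CPM in wild-type GAT, and so overlapped. Single genes of this sum differed in direction, with Ccl21a at 13.8 ± 9.79 CPM in Azin2-/- GAT and 5.31 ± 2.45 CPM in wild-type GAT, and Chst4, a sulphotransferase of high endothelial venules, at 2.18 ± 0.937 CPM in Azin2-/- GAT and 7.33 ± 4.74 CPM in wild-type GAT (SD, n = 4 each). Without wild-type replicate 3, the macrophage count was 6 of 12 higher, the B cell list had 3 higher and 4 lower, the signalling list 7 higher and 1 lower, and the T cell list 0 called. These lists had 0 called genes without Azin2-/- replicate 2, 3 or 4 or wild-type replicate 2 or 4.

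Whether genotype acted differently in the 2 depots was tested directly. By edgeR 0 of 9 members were called (0% of all 18033 genes were), 1 had an unadjusted p under 0.05, and DESeq2 called 0 of the members (0.876% of all genes were). The Cd79a difference, GAT minus SAT, was -0.66 on the log2 scale (95% interval -2.57 to 1.26). It was -1.71 without wild-type SAT replicate 4, the library with the highest Cd79a level of its group. Cr2 had -0.71 (-3.76 to 2.33) and Blk -1.91 (-3.79 to -0.03, edgeR adjusted p = 0.442). The lower Cd79a and Cr2 levels of Azin2-/- GAT were therefore not shown to be particular to that depot.

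Between depots of wild-type mice, GAT against SAT had its largest estimates for Jchain, Mzb1, Blk and Fcrla, and no member was called. Blk was at 1.22, 1.29, 1.94 and 0.985 CPM in GAT, against 0.499, 0.249, 0.289, 0.989 and 0.241 CPM in SAT, where replicate 4 alone reached the GAT range. Its log2 fold change was 1.60 ± 0.44 (edgeR adjusted p = 0.078), and 2.09 (0.0218) without SAT replicate 4. Jchain was at 1.79 to 22.7 CPM in GAT, against 0.632 to 3.05 CPM in SAT, at 3.15 ± 0.82 (edgeR adjusted p = 0.0672), and Fcrla had 1.29 ± 0.42 (0.124). For Cr2 (-0.22) and Fcer2a (-0.51) the estimates were negative with SAT replicate 4 in the fit, and 1.97 and 0.38 without it. In this contrast 0 of 9 were called by edgeR (4.33% of all genes were, 2.47% higher and 1.87% lower), and 4 had an unadjusted p under 0.05. DESeq2 called 2 of the 9, where it called 10.5% of all genes. All 9 overlapped, where 4.82% of all genes lay apart upward and 5.67% downward. Without SAT replicate 4, edgeR called 2, Blk and Cd79a (1.83, adjusted p = 0.0494), where 1.48% of all genes were called higher. SAT replicate 4 was the highest of its group for both genes, so leaving it out necessarily raises their estimates. The lymph node sum was 12.3 to 23.1 CPM in wild-type GAT, against 3.28 to 10.4 CPM in wild-type SAT. Its genes did not move as 1 set. Chst4 averaged 7.33 CPM in GAT and 0.00951 CPM in SAT, and Ccl21a 5.31 and 0.882 CPM, whereas Cxcl13 averaged 2.29 and 2.54 CPM. Glycam1 averaged 0.0293 CPM in GAT and 0 CPM in SAT. Wt1, the visceral marker, differed in the same direction as Chst4, at 19.8 CPM in GAT and 0.0211 CPM in SAT. Whether the lymph node sum reflects lymph node tissue, and its part in the B cell values, were not tested.

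In Azin2-/- mice, 7 of 9 members passed the low-count filter between depots (Cr2 and Mzb1 did not), and 0 were called by edgeR (15.2% of all genes were, 9.13% higher and 6.04% lower), with 2 at an unadjusted p under 0.05. DESeq2 called 2 of the 7, where it called 26.1% of all genes. Fcrla was at 0.743, 1.05, 1.06 and 0.626 CPM in GAT, against 0.334, 0.116 and 0.472 CPM in SAT, without overlap, at a log2 fold change of 1.45 ± 0.44 (edgeR adjusted p = 0.0639). Jchain was at 1.72 to 3.78 CPM in GAT, against 0.697 to 1.57 CPM in SAT, also without overlap, at 1.14 ± 0.41 (0.1). These were the 2 members that did not overlap in the higher direction, where 15.3% of all genes did not (15.9% in the lower direction). Cd79a (0.11, 95% interval -0.78 to 1.00), Cd79b (0.26) and Pax5 (-0.18) were close to 0 on the log2 scale.

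Wild-type SAT on the high-fat diet was also available at 20 and at 8 weeks, but these libraries belong to separate experiments, so that time on diet, age and experiment cannot be told apart. Jchain was at 4.57, 1.11, 10.7 and 4.59 CPM at 20 weeks, against 0.856, 0.685, 1.39, 3.05 and 0.632 CPM at 8 weeks, and 20-week replicate 4 lay below 8-week replicates 3 and 4. It was the 1 of 9 members called higher (19.6% of all genes were, 39.0% in either direction), at a log2 fold change of 1.99 ± 0.67 (edgeR adjusted p = 0.0444). This call was lost without 20-week replicate 3, 5 or 6 or 8-week replicate 1, 2, 3 or 5 (edgeR adjusted p 0.0726 to 0.128). Cd79a had -0.31 and Cr2 -0.62 with all libraries. Without 8-week replicate 4, 6 of 9 were called higher (20.1% of all genes were), namely Cd79a (0.73), Pax5 (0.97), Cr2 (1.56), Fcer2a (0.64), Fcrla (1.05) and Jchain (2.56). That library was the highest of its group for 8 of the 9 members, these 6 among them. Leaving it out necessarily raises their estimates, so these calls are no separate support. The remaining 8-week libraries held 3 to 10 reads of Cr2, which passed the low-count filter through the 20-week libraries.

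Across the 24 libraries the members varied together to different degrees, described here for 7 genes of B cell identity and signalling and for Jchain and Mzb1, a division made by their known roles. Spearman's rho over libraries was 0.23 to 0.87 (median 0.60) for the 21 pairs among Cd79a, Cd79b, Pax5, Cr2, Fcer2a, Blk and Fcrla, and 0.12 to 0.63 (median 0.34) for the 14 pairs of these with Jchain or Mzb1. Jchain with Mzb1 gave 0.28, below that median, while Jchain with Blk and with Fcrla gave 0.63 each. These values describe libraries that share diet, depot and genotype groups, with low counts throughout. Jchain and Mzb1 made up 12.4% to 65.9% of the summed CPM of the 9 members. In SAT the median was 14% in 8-week wild-type, 24.6% in Azin2-/-, 35.8% in 20-week high-fat and 43.1% in low-fat libraries. In GAT it was 34.9% in Azin2-/- and 43.6% in wild-type, where libraries ran from 16.6% to 65.9%. The protein-coding genes most like Cd79a over the 24 libraries were Spib (rho 0.89), Ms4a1 (0.87), Pou2af1 (0.85) and Cxcr5 (0.84), among 13860 genes searched. Those most like Jchain were Kcnj15 (0.75), Abca3 (0.74), Cndp1 (0.73), Cabyr (0.73) and Dzip3 (0.72). Ighm over Cd79a, a ratio of CPM, ran from 48.8 to 1099 over the libraries, and Igkc over Cd79a from 1.94 to 35.1.

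**Figure D4:**
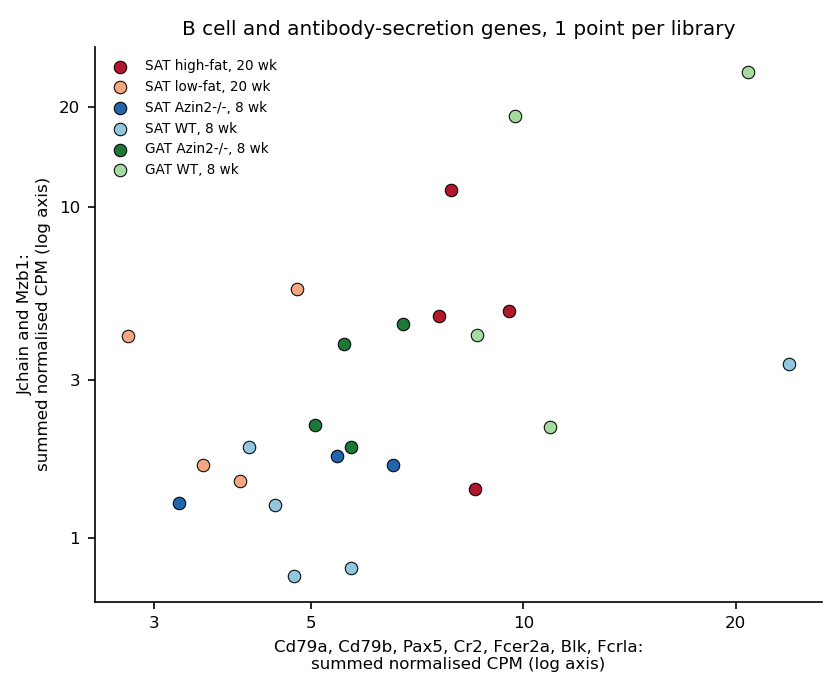
Summed normalised CPM of Jchain and Mzb1 (vertical) against that of the other 7 members (horizontal) in each library, both on log axes. Wild-type SAT replicate 4 lies far right at 23.8 CPM with 3.36 CPM of Jchain and Mzb1, and wild-type GAT replicate 3 lies at 20.8 CPM with 25.4 CPM.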

How the data were processed

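The values are raw counts per Ensembl gene, which the authors deposited without normalisation, 1 table per library. The tools named are HTSeq 0.6.1p1, STAR and cutadapt, with GRCm38 (mm10), all per the submitters' processing notes. Per the labels' protocols the libraries were stranded and made from total RNA. No source used here gives the aligner version, strand setting or annotation release. Symbols, coordinates and exon union lengths came from GENCODE M21, and promoter sequences from RefSeq (GRCm38.p6), with which 6 of 9 members were matched. The Cd79a window ends at the annotated gene start.

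The members and gene lists were chosen with earlier results of these data known. The test was edgeR 4.0.16 run in R 4.3.3 (filterByExpr, minimum count 10, minimum total count 15, TMM, robust quasi-likelihood test) in 7 comparisons of the labelled groups, with Benjamini-Hochberg adjustment over all genes of a comparison and a threshold of 0.05. The tests were tried on simulated counts. Levels use TMM factors over all 24 libraries. All 9 members are given in each comparison, and of other lists up to 4 called genes of smallest p, plus Ms4a1, Glycam1, Ccl21a and Cxcl13. Other genes were named after their values were seen, and some genes that this rule takes are not reported here. The 5 genes most like Cd79a and Jchain had the highest Spearman rho of log2 CPM. Alternatives were DESeq2 1.42.0 (size factors, Wald test), no filter, all libraries in 1 fit, replicate blocks and left-out libraries. Leaving out both wild-type libraries with the highest B cell levels was chosen after seeing the data.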

Additional observations from a re-analysis of the deposited data

Results flagged for a closer look

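In wild-type SAT, 5 members had 1 library, replicate 4, lying farther from the rest of its group than the usual criterion for a single deviating value allows. These were Cd79a at 6.07 CPM, Cd79b at 4.29 CPM, Pax5 at 5.14 CPM, Cr2 at 2.77 CPM and Fcer2a at 3.62 CPM. In wild-type GAT, Cd79b in replicate 3, at 4.63 CPM, deviated in the same way. In all, 6 of 45 combinations of member and group were singled out, where chance gives about 1 in 20, and since the members move together within a library these are not independent.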

How the results depend on the processing

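Counts of called members depended on the setting. Brackets hold the share of all genes called either way. For diet in SAT (3 called, 21.2%), DESeq2 called 5 (31.6%) and the replicate block 6 (34.4%). The fit of all 24 libraries called 1 for diet (31.9%). With diet libraries removed singly, the count lay between 2 and 6 (10.3% to 47%). For genotype in GAT (2 called, 6.77%), DESeq2 called 5 (18.4%), no filtering 0 (0%) and the fit of all 24 libraries 0 (6.39%). With GAT libraries removed singly, the count lay between 0 and 3 (0% to 15.7%). For depot in wild-type (0 called, 4.33%), DESeq2 called 2 (10.5%), all 24 libraries in 1 fit 1 (3.31%), and the fit without both libraries of highest B cell levels 3 (3.56%). Leaving out each library gave 0 to 2 in that contrast (1.71% to 5.29%). For depot in Azin2-/- (0 called, 15.2%), DESeq2 called 2 (26.1%) and leaving out each library 0 to 0 (0.217% to 19.9%). For duration (1 called, 39.0%), no filter gave 0 (19.7%), leaving out the muscle-rich libraries 0 (40.9%), and leaving out each library 0 to 6 (29.2% to 41.5%). Genotype in SAT and the depot difference stayed at 0 in every setting (at most 1.99% and 0.876%). The cause of these moves was not tested.

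Whether libraries of the same number or mark came from 1 animal or batch is not stated, and these correlations cannot settle it, so no pairing was assumed. Deviations of same-numbered libraries from their group means correlated at 0.18, -0.09 and 0.09 (diet), 0.19, -0.08 and -0.09 (wild-type depots), and -0.03 and 0.09 (Azin2-/- depots). With the block, 6 members were called for diet and 0 for the depot contrasts. Under the block, a library whose number or mark is not shared between the groups adds nothing to the contrast. For diet these were high-fat replicate 4 and low-fat replicate 1. For the wild-type depots they were GAT replicate 4 and SAT replicates 1 and 4, and for the Azin2-/- depots GAT replicates 1 and 4 and SAT replicate 1. Over all genes the block moved the diet calls to 5867 (3622 without it), the wild-type depot calls to 0 (738 without it) and the Azin2-/- depot calls to 1099 (2549 without it). Other settings that moved the calls over all genes by more than 1.5 times were DESeq2 (338 against 1 for genotype in SAT, 3079 against 1136 for genotype in GAT, 1784 against 738 and 4387 against 2549 for the depots, 158 against 0 for the depot difference), no filter (2335 for diet, 0 for genotype in GAT, 490 for depot in wild-type), and all 24 libraries (6056 for diet, 13 for genotype in SAT, 4229 against 6614 for duration). Leaving out 1 library gave 8109 for diet without low-fat replicate 1, 0 to 2672 for genotype in GAT and 107 for the depot difference without Azin2-/- GAT replicate 1.

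Estimates that changed sign were of members not called with all libraries in the fit. For duration without wild-type SAT replicate 4, Cd79a (0.73), Pax5 (0.97), Cr2 (1.56) and Fcer2a (0.64) changed sign and were then called. Under the block these were Mzb1 for diet (0.86), Cr2 and Fcer2a for depot in wild-type (1.94 and 0.46), Fcer2a for depot in Azin2-/- (0.05) and for the depot difference (-0.41). Without the muscle-rich libraries they were Jchain and Mzb1 for genotype in SAT (0.24 and -0.38), Cd79a for depot in Azin2-/- (-0.17) and Fcrla for the depot difference (-0.05). Cr2 for depot in wild-type was 1.51 without both highest libraries, Fcer2a for depot in Azin2-/- 0.00 without the filter, and Mzb1 for duration -0.00 with DESeq2 and -0.01 with all 24 libraries.

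With each library left out in turn, the log2 fold changes that crossed 0 ran as follows. For diet Mzb1 -0.78 to 0.87. For genotype in SAT Mzb1 -0.64 to 0.38, Jchain -0.27 to 0.49, Cd79b -0.28 to 0.34 and Blk -0.89 to 0.68. For depot in wild-type Pax5 -0.22 to 1.33, Cr2 -0.67 to 1.97 and Fcer2a -1.13 to 0.38. For depot in Azin2-/- Cd79a -0.17 to 0.31, Fcer2a -0.13 to 0.12, Pax5 -0.56 to 0.20 and Blk -0.76 to 0.72. For the depot difference Pax5 -1.50 to 0.04, Fcrla -0.18 to 0.62 and Fcer2a -0.38 to 1.12. For duration Mzb1 -0.43 to 0.30, Cd79a -0.55 to 0.73, Pax5 -0.26 to 0.97, Cr2 -0.92 to 1.56 and Fcer2a -0.45 to 0.64.

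Of 897 refitted estimates of the members, 798 kept their direction and their side of the threshold. Another 44 changed sign, 25 gained a call and 30 lost one. Calls with all libraries were only 3 for diet, 2 for genotype in GAT and 1 for duration. An uncalled member that stayed uncalled with the same sign counts as kept, so the 798 does not measure how stable these calls were. With each library left out, Cr2 for diet stayed called (highest edgeR adjusted p 0.0434), and Cr2 for genotype in GAT did not (lowest 0.0521). The 54 group levels moved by less than 1 SD on the scale of CPM of the library total. Depth limits Cr2 and Mzb1 most.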
